A study of Mus musculus with 4 samples.

Results

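The 47 genes described here belong to the interferon response and to antigen presentation by MHC class I, and they were chosen by the gene symbol that the platform annotation gives a probe. Of these genes, 45 had a probe, and all 45 were measured above background on at least 2 of the 4 arrays, among 15955 genes tested. Psme2 and Ifi44 had no probe under these symbols and were not analysed here. The RNA came from the ventricles of male 129SV mice, 2 samples with the wild-type Trpc6 gene and 2 with a genetic deletion of Trpc6 (Trpc6-/-), which encodes a receptor-operated calcium-permeable cation channel. The labels give neither the age of the mice nor the deletion allele, and they name no treatment. The labels do not say whether samples of a group came from separate animals, so that a p-value here speaks only to sample-to-sample spread, possibly of technical origin. The comparison asks which of these transcripts differ in the ventricle without the channel.

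Interferon gamma, secreted by activated lymphocytes, acts through its receptor and JAK kinases to induce the peptide presentation machinery and families of large GTPases that attack intracellular pathogens. Type I interferons act on nearly all nucleated cells through another receptor and a complex that contains STAT2 and IRF9, which binds the interferon-stimulated response element and turns on antiviral effectors such as the Ifit, Oas and Mx proteins. The 2 programmes overlap, and many genes answer to both. On these arrays the members had a median normalised log2 intensity of 6.60 in wild type, with a range of 5.83 to 10.34. The median of all genes tested was 6.37.

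Levels are normalised log2 intensities, differences are knockout minus wild type on that log2 scale with limma's standard error (SE), and n = 2 arrays per group. Trpc6 could not serve to check the labels, since its probe was above background on 0 of 4 arrays. The median probe read 95.5 to 106 units against 78.4 to 87.5 units for blank spots, a narrow margin. All 12 markers of ventricular cardiomyocytes were kept, and their summed level was 235931 to 245731 units on the 4 arrays. The brightest of them, such as Actc1, Myl2 and Tnnt2, lie where quantile normalization sets values by rank. The sums therefore cannot show that tissue content was alike. Precision is limited by having 4 arrays, and an exact permutation test of 2 against 2 samples cannot give a p below 0.333.

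The sequences below show the interferon-stimulated response element before the start of some of the members whose values are described next. Not shown are matches before the start of Gbp2, Gbp3, Gbp5, Irgm1, Tgtp1, Ifit1, Isg15, Rsad2, Bst2 and Stat2, and another in Ifit3. H2-K1, Psmb8, Psmb9, Tap1 and Irf9 were among the members without a match. The letters searched were 2 copies of GAAA with any 2 bases between them, on both strands, in RefSeq windows of 250 bases before to 50 bases after a gene's start (build GRCm38.p6, a C57BL/6J genome and not that of these mice). Capitals mark 1 match in each stretch, which reads as the reverse complement in H2-T23 and Ifit3. In Oas1a another match overlaps the capitals and runs on into the small letters after them.
Igtp, chr11:58199506-58199547, plus strand: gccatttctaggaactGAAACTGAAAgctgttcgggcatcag
Irgm2, chr11:58214897-58214938, plus strand: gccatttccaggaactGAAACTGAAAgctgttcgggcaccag
Tgtp2, chr11:49064257-49064298, minus strand: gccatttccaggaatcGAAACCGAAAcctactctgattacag
B2m, chr2:122147532-122147573, plus strand: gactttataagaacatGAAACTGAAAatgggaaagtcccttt
H2-T23, chr17:36032800-36032841, minus strand: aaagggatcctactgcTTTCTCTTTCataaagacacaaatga
Ifit3, chr19:34583357-34583398, plus strand: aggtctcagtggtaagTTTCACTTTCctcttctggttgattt
Oas1a, chr5:120907526-120907561, minus strand: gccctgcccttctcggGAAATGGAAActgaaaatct

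The stretches of Igtp and Irgm2, neighbours on chromosome 11, are nearly the same. The match begins 34, 64 and 70 bases before the start of Igtp, Irgm2 and Tgtp2, and 139 bases before that of B2m. Windows were found for 35 of the 45 measured members. The letters stood in 21 of these 35 members, against 3.99% of 27025 genes in the table, and in all 8 GTPase genes with a window. They stood in 2 of 6 MHC class I and peptide loading genes and in 3 of 5 Ifit, Oas and Mx genes. Of 4 genes of the immunoproteasome and its PA28 activator they stood in 1, Psme1 of PA28, after the start. Psmb8, Psmb9 and Psmb10 had no match. The gamma-activated site, searched as TTCNNNGAA on both strands, stood in 12 of the 35 members against 9.55% of genes, and in 5 of the 8 GTPase genes. A match describes the letters only.

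The interferon-gamma type genes (MHC class I, immunoproteasome and GTPases) lay higher in the knockout in 19 of 21, and the type I genes of the Ifit, Oas and Mx families in 3 of 7. The median difference was 0.14 for the first class and -0.01 for the second, beside 0.00 for all genes tested, of which 51.1% lay higher. Without the second knockout array the interferon-gamma type median was 0.017, and the difference between the class medians was 0.08 in place of 0.15. This array held the highest value in 18 of the 21 interferon-gamma type genes, whereas it was the highest array in 26.2% of all genes. No member passed the test over all genes. With limma, 0 of 15955 genes had an adjusted p under 0.05, and 1076, or 6.74%, had an unadjusted p under 0.05. Among the members 3 of 45 did, a share near the 6.74% of all genes. B2m and Psmb10 were higher in the knockout, as were 3.67% of all genes at this threshold, and Ddx58 was lower, as were 3.08%. The 2 groups did not overlap in 16 of the 45 members and in 36.8% of all genes. An absolute difference of at least 0.20 was seen in 10 of the 45 members and in 5.48% of all genes. Without the second knockout array B2m alone of these 10 kept such a difference, at 0.46. The others then lay between -0.09 and 0.18. The type I genes were also dimmer, with a median wild-type level of 6.04 against 6.997 for the interferon-gamma type genes, and the offset used here shrinks differences of dim probes.

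**Figure D1:**
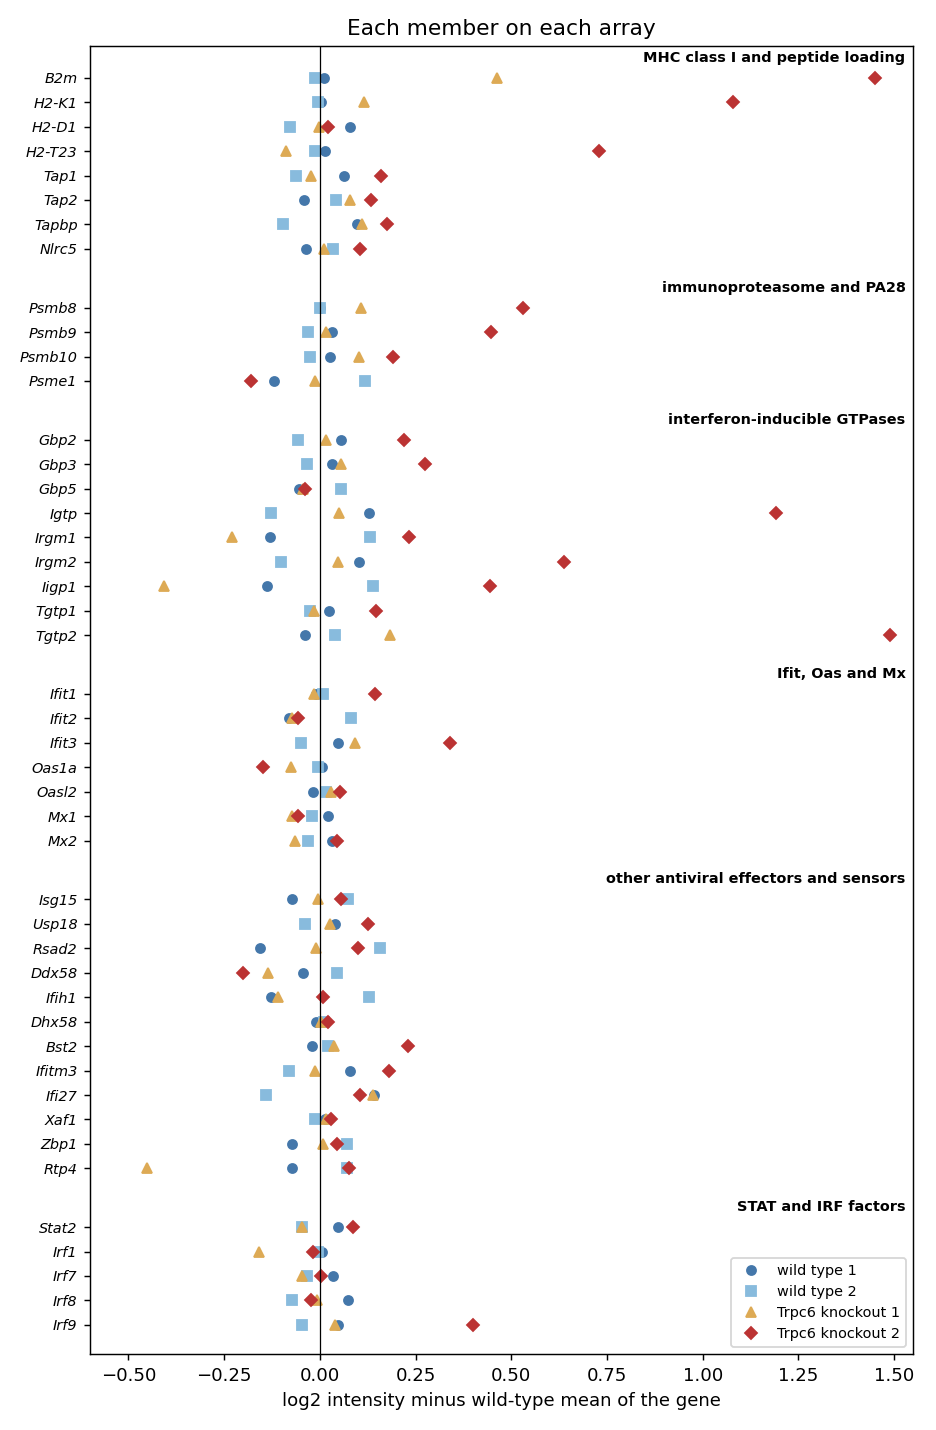
Each of the 45 members on each of the 4 arrays (x axis: log2 intensity minus the wild-type mean of that gene; circles and squares, the wild-type arrays; triangles and diamonds, the knockout arrays). The second knockout array stands far to the right for B2m, H2-K1, H2-T23, Igtp, Irgm2 and Tgtp2, while the first knockout array lies near the wild-type arrays for all of these but B2m.

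B2m, the light chain shared by all MHC class I molecules, was at 9.63 and 9.61 in wild type and at 10.08 and 11.07 in the knockout. The groups did not overlap, and the second knockout array lay as far above the first as the group means lay apart. The difference was 0.96 ± 0.33 (SE), or 1.94-fold, with a 95% interval of 0.07 to 1.84, an unadjusted p of 0.0391 and a limma adjusted p of 0.727. In the authors' deposited table B2m read 709.3 and 646.7 units in wild type and 943.6 and 2031.6 units in the knockout. Without the second knockout array the difference was 0.46. After local background subtraction it was 0.14, with an unadjusted limma p of 0.819. The local background itself followed the spot medians, with correlations of 0.931 to 0.967 on the log2 scale. Whether its subtraction also removed signal was not tested.

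The heavy chains that pair with B2m differed among themselves. H2-K1, a classical heavy chain, was at 8.46 and 8.45 in wild type and at 8.57 and 9.54 in the knockout, a difference of 0.60 ± 0.32 that was 0.12 without the second knockout array. The groups did not overlap, yet the first knockout array lay only 0.12 above the wild-type mean. H2-T23, which encodes the Qa-1 heavy chain recognised by receptors of natural killer cells, was at 8.32 and 8.29 in wild type and at 8.22 and 9.03 in the knockout. Its groups overlapped, and its difference of 0.32 ± 0.28 became -0.09 without the second knockout array. H2-D1, the other classical heavy chain, was at 5.94 and 5.78 in wild type and at 5.86 and 5.88 in the knockout, with a difference of 0.01 ± 0.06. Its probe was dim, above background on 3 of 4 arrays, and its difference turned sign, to -0.07, without the second wild-type array. Several class I genes are close copies of others, probe sequences were not used here, and signal shared between copies cannot be told apart.

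Genes that load peptide onto MHC class I showed smaller differences. Tap2, a subunit of the peptide transporter of the endoplasmic reticulum, was at 6.70 and 6.78 in wild type and at 6.82 and 6.88 in the knockout. Both knockout arrays lay above both wild-type arrays, and the difference was 0.11 ± 0.05. Tapbp, or tapasin, which bridges the transporter and the heavy chain, was at 7.37 and 7.18 in wild type and at 7.38 and 7.45 in the knockout, without overlap but with 0.01 between the nearest arrays. A second, dim probe of Tapbp gave -0.02 ± 0.05 where the first gave 0.14 ± 0.08, and after local background subtraction the difference was -0.74. Tap1, the partner of Tap2, and Nlrc5, the transactivator of class I genes, had differences of 0.07 ± 0.08 and 0.06 ± 0.05, with overlap. All 8 genes of this group lay higher in the knockout, 4 of them without overlap, where 19.4% of all genes lay higher without overlap. Set against the first wild-type array, the first knockout array was higher in 5 of the 8.

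Interferon exchanges 3 catalytic subunits of the proteasome for the immunoproteasome subunits Psmb8, Psmb9 and Psmb10, which favours peptides that bind MHC class I. Psmb8 was at 6.996 and 6.997 in wild type and at 7.10 and 7.53 in the knockout, a difference of 0.32 ± 0.15 that was 0.11 without the second knockout array. Psmb9 was at 6.52 and 6.45 in wild type and at 6.50 and 6.93 in the knockout, with overlap and a difference of 0.23 ± 0.15, or 0.02 without that array. Both were thus highest on the same array as H2-K1 and H2-T23. Psmb10 was at 8.19 and 8.13 in wild type and at 8.26 and 8.35 in the knockout. Its groups did not overlap, and its difference of 0.15 ± 0.05 had an unadjusted p of 0.0392 and a limma adjusted p of 0.727. It was 0.10 without the second knockout array, with an unadjusted limma p of 0.182, and 0.31 after local background subtraction, with an unadjusted limma p of 0.190. Psme1, a subunit of the PA28 activator, had a difference of -0.10 ± 0.10 on its brightest probe and 0.08 ± 0.06 on the other, so that no direction held. Of the 17 constitutive proteasome genes 11 lay higher and 6 lower, with a median of 0.02. Psmb1 and Psma2, of the core particle, had differences of 0.24 ± 0.04 and 0.16 ± 0.05, with unadjusted p-values of 0.00392 and 0.0287 and a limma adjusted p of 0.727 for both.

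**Figure D2:**
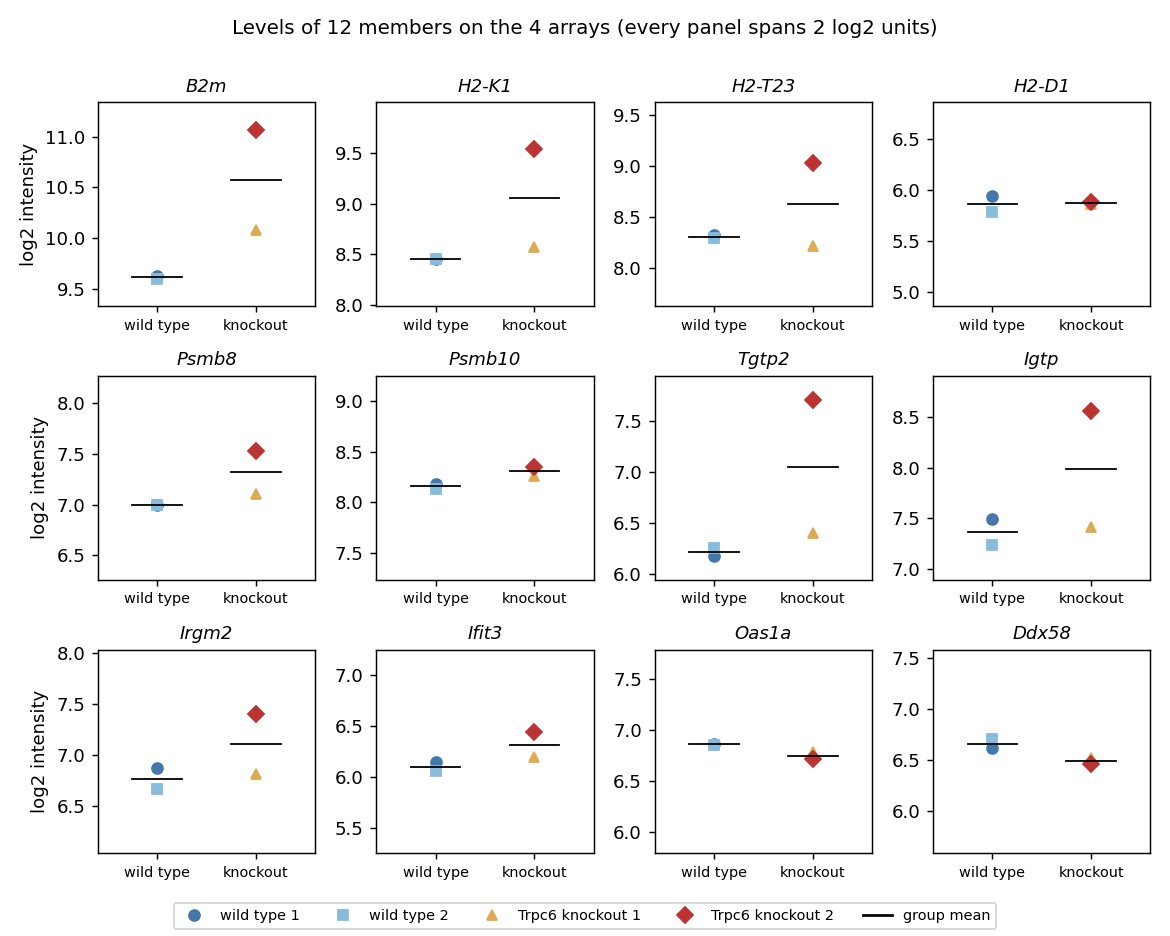
Normalised log2 intensity of 12 members on the 4 arrays, by group, with a line at the mean of each group; every panel spans 2 log2 units. B2m, H2-K1, H2-T23, Tgtp2 and Igtp lie highest on the second knockout array by 0.72 to 1.31 over the next array, and H2-D1, Oas1a and Ddx58 do not.

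The interferon-inducible GTPases, which coat and disrupt the vacuoles of intracellular pathogens, held the 2 members with the widest gap between the knockout arrays, Tgtp2 and Igtp. Tgtp2 was at 6.18 and 6.26 in wild type and at 6.40 and 7.71 in the knockout. The groups did not overlap, and the knockout arrays differed by 1.31, the largest excess of the second over the first knockout array among all 15955 genes. The difference between groups was 0.84 ± 0.44, with a 95% interval of -0.33 to 2.00. It was 0.18 without the second knockout array and 0.35 after local background subtraction. In the authors' deposited table Tgtp2 read 19.4 and 20.5 units in wild type and 27.2 and 155.3 units in the knockout. Tgtp1, a near copy of Tgtp2, was above background on 2 of 4 arrays and had a difference of 0.07 ± 0.07.

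Igtp (Irgm3), a regulatory GTPase of this family, was at 7.49 and 7.24 in wild type and at 7.42 and 8.56 in the knockout. The groups overlapped, because the first knockout array lay between the wild-type arrays. Its difference was 0.62 ± 0.39, and 0.05 without the second knockout array. A second probe of Igtp was at 6.98 and 6.72 in wild type and at 6.65 and 7.62 in the knockout, so that both probes were highest on the same array. Irgm2, another regulatory member, was at 6.87 and 6.66 in wild type and at 6.81 and 7.40 in the knockout, a difference of 0.34 ± 0.21 that was 0.05 without the second knockout array. Gbp3, a guanylate-binding protein, was at 6.19 and 6.13 in wild type and at 6.21 and 6.43 in the knockout, with a difference of 0.16 ± 0.09 and 0.05 without that array.

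In 2 GTPases the knockout arrays lay on either side of wild type. Iigp1, an effector GTPase, was at 8.65 and 8.93 in wild type and at 8.38 and 9.24 in the knockout, a difference of 0.02 ± 0.30. Irgm1, a regulator of autophagy in this family, was at 7.17 and 7.44 in wild type and at 7.07 and 7.54 in the knockout, a difference of 0.00 ± 0.18. For these genes the group means were close while the knockout arrays differed by 0.85 and 0.46. Gbp2 and Gbp5 had differences of 0.12 ± 0.09 and -0.04 ± 0.05, with overlap.

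Most type I genes were dim, and Oas1a was the brightest of the 7. Ifit3, an RNA-binding antiviral protein, was at 6.15 and 6.05 in wild type and at 6.19 and 6.44 in the knockout, without overlap. Its difference was 0.22 ± 0.10, and 0.09 without the second knockout array. Oas1a, an oligoadenylate synthetase that activates RNase L, was at 6.86 and 6.85 in wild type and at 6.78 and 6.71 in the knockout, so that both knockout arrays were lower. Its difference was -0.11 ± 0.04, with an unadjusted p of 0.0564 and a limma adjusted p of 0.751. Ifit1, Ifit2 and Oasl2 had differences of 0.06 ± 0.06, -0.07 ± 0.07 and 0.04 ± 0.04. The Mx GTPases, which block viral replication, had differences of -0.07 ± 0.04 for Mx1 and -0.01 ± 0.06 for Mx2. In this class 2 genes were higher and 2 lower without overlap, where 19.4% and 17.4% of all genes were.

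**Figure D3:**
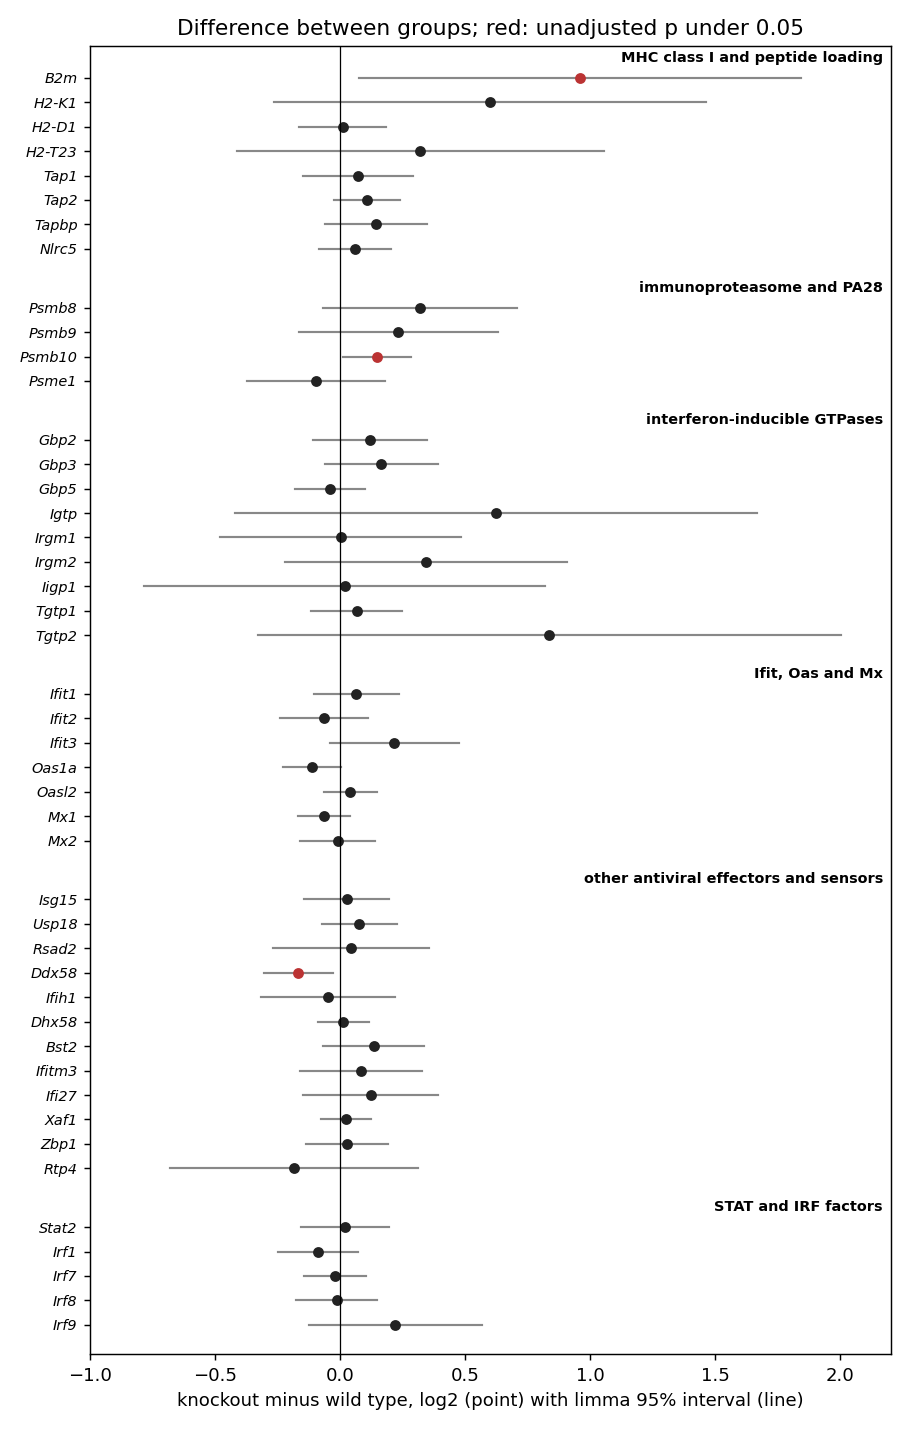
Knockout minus wild type on the log2 scale for the 45 members (points) with limma's 95% interval (lines), grouped by role; red points had an unadjusted p under 0.05 and none passed the adjusted threshold. The intervals are widest for Tgtp2, Igtp, B2m, H2-K1, Iigp1 and H2-T23, whose knockout arrays lay 0.82 to 1.31 apart.

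Among the other antiviral genes 9 of 12 lay higher, with a median of 0.03 and a range of -0.19 to 0.13. Ddx58, which encodes the RNA sensor RIG-I, was at 6.61 and 6.70 in wild type and at 6.52 and 6.46 in the knockout. Both knockout arrays were lower, and the difference was -0.17 ± 0.05, with an unadjusted p of 0.0279 and a limma adjusted p of 0.727. The difference stayed between -0.21 and -0.12 when any 1 array was left out, and the unadjusted limma p was above 0.05 without the second wild-type array or either knockout array. The related sensors Ifih1 (MDA5) and Dhx58 (LGP2) had differences of -0.05 ± 0.10 and 0.01 ± 0.04. Bst2, or tetherin, which holds budding virions at the cell surface, was at 6.22 and 6.26 in wild type and at 6.27 and 6.47 in the knockout, a difference of 0.13 ± 0.08 that was 0.04 without the second knockout array.

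The remaining antiviral genes overlapped between the groups, apart from Xaf1, a pro-apoptotic factor, at 0.02 ± 0.04. Isg15, a ubiquitin-like modifier, and Usp18, the protease that removes it, had differences of 0.03 ± 0.06 and 0.08 ± 0.06. Rsad2 (viperin), Zbp1, a sensor of Z-form nucleic acid, and Ifi27 had differences of 0.04 ± 0.12, 0.03 ± 0.06 and 0.12 ± 0.10. Ifitm3, which blocks viral entry and was the brightest of this group at 9.19 in wild type, had a difference of 0.08 ± 0.09. Rtp4 was at 7.78 and 7.93 in wild type and at 7.40 and 7.93 in the knockout, a difference of -0.19 ± 0.19 that came from the first knockout array.

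Of the factors that transcribe these genes, Irf9, the DNA-binding part of the type I complex, was at 6.60 and 6.50 in wild type and at 6.59 and 6.95 in the knockout. Its difference was 0.22 ± 0.13, and 0.04 without the second knockout array. Irf1, a factor induced by interferon gamma, was at 7.74 and 7.73 in wild type and at 7.58 and 7.72 in the knockout, a difference of -0.09 ± 0.06 without overlap. It was thus not high on the array on which the class I heavy chains H2-K1 and H2-T23 were. Stat2, Irf7, the amplifier of type I interferon, and Irf8, a factor of myeloid cells, had differences of 0.02 ± 0.07, -0.02 ± 0.05 and -0.01 ± 0.06.

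Between single arrays, the interferon-gamma type median was 0.01 for the first knockout array against the first wild-type array and 0.07 against the second. It was 0.24 and 0.28 for the second knockout array against the same arrays. Within genotypes it was 0.22 between the knockout arrays, with 20 of 21 genes higher on the second, and -0.03 between the wild-type arrays. The distance between the knockout arrays thus exceeded that between the group means. The Ifit, Oas and Mx median stayed between -0.03 and 0.04 in the 6 pairs of arrays, and that of all genes between 0.00 and 0.01. The difference between the 2 class medians was 0.15 over the group means and 0.02 to 0.24 over the 4 pairs across genotype, and it has no test here.

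**Figure D4:**
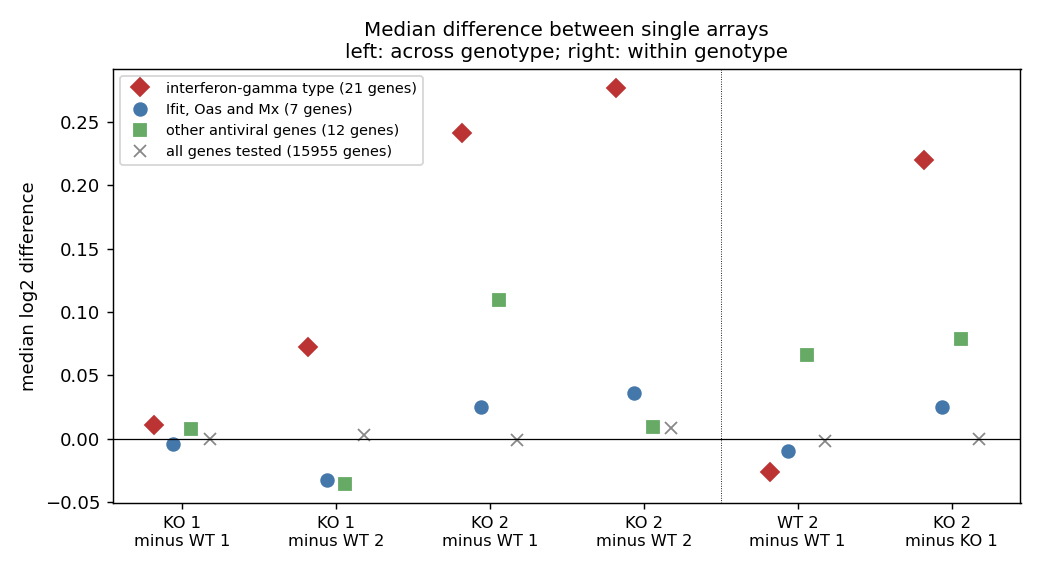
Median log2 difference between single arrays (y axis) for the 21 interferon-gamma type genes, the 7 Ifit, Oas and Mx genes, the 12 other antiviral genes and all 15955 genes tested; the left 4 pairs are across genotype and the right 2 within genotype. The interferon-gamma type median is 0.24 and 0.28 in the pairs of the second knockout array with wild type and 0.22 against the first knockout array.

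Over all genes, the 4 with the largest excess of the second over the first knockout array were Tgtp2, Igtp, B2m and H2-K1, and 6 of the 10 largest were members, while 0.282% of genes tested are members. This order was drawn up after the values had been seen. The count differed between settings, with 6 of 10 after median or 75th percentile scaling, 4 with an offset of 16, 2 with an offset of 0 or in the authors' table, and 0 after local background subtraction, and the cause was not tested. Between the wild-type arrays, no member differed by more than 0.31 in either direction.

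The marker lists of other cells differed in sum between arrays, and a few bright genes made up much of these sums. The summed level of 14 macrophage and monocyte markers was 4178 and 4140 units in wild type and 4433 and 5311 units in the knockout, and that of 11 endothelial markers was 11310 and 12595 against 12614 and 13894 units. Of these markers 8 of 14 and 5 of 11 were highest on the second knockout array, where 26.2% of all genes were, and 0 were lowest there. Those highest there included C1qa, C1qb, C1qc, Lyz2, Flt1 and Pecam1. Csf1r, Adgre1, Cdh5 and Kdr were highest on a wild-type array, and of these Adgre1 and Cdh5 were dim. Fabp4 alone gave 9763 of the 13894 endothelial units, and Ly6c1 gave 2369 of the 5311 macrophage and monocyte units. In wild type Ly6c1 was at 10.76, while the monocyte markers Ccr2 and Itgam were at 5.84 and 5.78. Which cells gave the Ly6c1 signal was not tested. Fibroblast markers summed to 4876 and 4400 units in wild type and to 4190 and 3712 units in the knockout. Dcn alone gave 1840 of the 3712 units and had a difference of -0.47 ± 0.13, while Col3a1 had 0.49 ± 0.30. Of the 8 fibroblast markers 4 lay higher and 4 lower, with a median of 0.00. Red blood cell markers summed to 1215 and 3070 units in wild type and to 3670 and 3807 units in the knockout. All 5 were higher without overlap, as were 19.4% of all genes, with a median difference of 0.94. Between the wild-type arrays their median difference was larger, at 1.18, with the first array lower. Ly6g, from the neutrophil list, had a difference of -0.75 ± 0.16, with an unadjusted p of 0.00629 and a limma adjusted p of 0.727. The rest of that list did not share this size. Retnlg, S100a8, S100a9 and Elane were dim, with differences of -0.06, 0.02, -0.08 and -0.01. Csf3r, Cxcr2 and Mpo were not kept as above background. T and natural killer cell markers summed to 630 to 647 units on the 4 arrays over 10 kept of 15 with a probe, and Cd3g, Cd2, Nkg7, Klrb1c and Klrd1 were not above background. The part of these cells in the differences above was not tested. In such tissue RNA more cells of a type and more RNA per cell cannot be told apart. The sum of the atrial markers, 3893 to 3922 units in wild type and 4710 and 6850 units in the knockout, was mostly Nppa.

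Upstream of the members, Ifng, the gene of interferon gamma, was at 5.87 and 5.78 in wild type and at 5.85 and 5.86 in the knockout, close to background. Of 15 receptor, JAK, STAT and feedback genes 12 lay higher, with a median of 0.06. Socs3, a feedback inhibitor of JAK kinases, was the only one with an unadjusted p under 0.05, at 0.0492, with a difference of -0.16 ± 0.06 and a limma adjusted p of 0.739. Ifngr1 and Ifngr2, the chains of the interferon gamma receptor, had differences of 0.15 ± 0.08 and 0.10 ± 0.08, and Ifnar1 and Ifnar2 of the type I receptor had -0.02 ± 0.04 and -0.01 ± 0.07. Of 9 nucleic acid sensing genes 3 lay higher, with a median of -0.05, and of 8 interferon and related cytokine genes 5 did, with a median of 0.01. Of 56 other interferon-induced genes 36 lay higher, with a median of 0.02. Among these Ifi47, a further GTPase, had a difference of 0.15 ± 0.06, an unadjusted p of 0.0436 and a limma adjusted p of 0.727.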

How the data were processed

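Total RNA was labelled with Cy5 and read on 1-colour Toray oligonucleotide arrays, 1 per sample, per the labels. The scanner files deposited by the authors hold the median intensity of each of 27456 spots read at 635 nm, per the file headers, and the labels and headers do not say how 3 scanner gains were joined. The authors' deposited table holds intensity of the same arrays after subtracting a constant and scaling each array to a median of 25, as a straight-line fit to the spot medians showed (residuals up to 0.0523 units). Dim cells are empty there.

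Spot medians were corrected with normexp (limma 3.58.1, R 4.3.3, offset 50), averaged per probe and quantile normalized. Probes above the 95th percentile of blank and negative control spots on at least 2 arrays were kept, and the brightest kept probe stood for a gene. Platform symbols named the probes. Groups were compared with lmFit and eBayes without covariates, and adjusted by Benjamini-Hochberg over 15955 genes. All p-values are two-sided. The fit was also run on simulated data, drawn with normal noise and limma's own variances. Such data follow the model, so they cannot show how the fit behaves on these arrays. Summed marker levels are linear normalised intensities that include the offset.

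Members and lists were chosen with earlier results of these data known. Every measured member is named. Values on every array are given for members with an unadjusted p under 0.05, an absolute difference of at least 0.20, or one of at least 0.10 without overlap, and for B2m, H2-K1 and H2-D1. Those of Irgm1, Iigp1, Irf1, Rtp4, Ifng and the MHC class II and further class I genes, the receptor genes other than Socs3, and single cell type markers, were added after their values had been seen. Of other pathway lists, up to 4 genes with an unadjusted p under 0.05 are named. Alternatives changed the background, normalization, filter, source of values, probe choice, variance model or design, or left out 1 array.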

Additional observations from a re-analysis of the deposited data

How the results depend on the processing

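No fit gave a gene with an adjusted p under 0.05, with 1076 genes at an unadjusted p under 0.05 in limma's fit of all arrays, 679 in the authors' table and 444 to 2338 with 1 array left out. These 1076 were 585 higher and 491 lower, against 397 and 676 with median scaling. Members at an unadjusted p under 0.05 numbered 3, and 5 with an offset of 16, 5 after local background subtraction, 6 with an intensity trend and 1 to 14 with 1 array left out, the 14 without the first knockout array. The interferon-gamma type median of 0.14 was 0.32 with an offset of 0, 0.38 in the authors' table and 0.017 to 0.23 with 1 array left out, lowest without the second knockout array. The type I median of -0.01 was -0.069 with an offset of 0, 0.051 after local background subtraction, 0.042 with 75th percentile scaling, -0.17 in the authors' table and -0.066 to 0.046 with 1 array left out, so that it had no settled sign. The difference of the class medians, 0.15, was 0.39 with an offset of 0, 0.55 in the authors' table and 0.08 to 0.19 with 1 array left out. Signs turned after local background subtraction for H2-D1 (-0.014), Tapbp (-0.74) and Oas1a (0.051). With 1 array left out, H2-D1 ranged from -0.067 to 0.087 and H2-T23 from -0.091 to 0.72. The cause of these changes was not tested. Of 269 values of 18 members under the alternatives, these were the 6 of opposite sign, and the lowest adjusted p was 0.219.

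With the replicate number as a block, 4 members had an unadjusted p under 0.05, and no count moved by over 1.5 times. The labels do not say that the numbers pair samples, and the deviations of same-numbered arrays correlated at 0.097 across genes. Dim type I probes limit what can be seen there.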

Other observations

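The other MHC genes of the array followed both patterns seen among the members, and they are named here after their values had been seen. Of 18 further class I genes and loading factors 13 lay higher in the knockout, with a median of 0.07 and none at an unadjusted p under 0.05. H2-Q6, a non-classical heavy chain, was at 6.49 and 6.59 in wild type and at 6.68 and 7.45 in the knockout. H2-Q7 was at 7.53 and 7.68 in wild type and at 7.68 and 8.53 in the knockout, and H2-T9 at 8.85 and 9.01 against 8.95 and 9.68. All 3 were highest on the second knockout array. Probe sequences were not compared, so signal shared among related class I genes cannot be told apart here either.

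MHC class II, which presents peptide to helper T cells and is induced by interferon gamma in antigen-presenting cells, did not lie higher as a group. Of 8 genes 3 were higher and 5 lower, with a median of -0.05. H2-Aa was at 8.32 and 8.14 in wild type and at 7.68 and 8.46 in the knockout, and H2-Ab1 at 7.42 and 7.34 against 6.99 and 7.80. H2-Eb1 was at 7.63 and 7.51 in wild type and at 7.14 and 7.92 in the knockout. In these 3 genes the knockout arrays lay on either side of wild type, as in Iigp1 and Irgm1, and differed by 0.78 to 0.81. Their transactivator Ciita was at 6.74 and 6.81 in wild type and at 6.73 and 6.72 in the knockout. Cd74, the invariant chain, was at 7.15 and 7.30 in wild type and at 6.73 and 7.28 in the knockout, low on the first knockout array alone.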
